A study of Homo sapiens with 27 samples.

Results

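The 18 libraries of 293T, of 27 libraries in the series, were split into classes chosen by the measured amount of ARID1A transcript and not by their labels. Libraries with 1000 or more ARID1A counts per 1000000 counts of the library (CPM of the total) formed the high class, with 13 libraries, and those under 1000 formed the low class, with 5. 293T is a line of human embryonic kidney cells that carries the SV40 large T antigen. By the labels, ARID1A had been knocked out in all 6 groups of 3 libraries, the controls included. One group was the knockout alone (KO), and the others were knockout cells in which a lentivirus stably expressed Flag-tagged ARID1A, either wild type (WT) or with the single residue change V2084D, G2087E, G2087R or K2025E. No library of unedited 293T cells is compared here, and the labels do not say whether the knockout line is 1 clone or whether the 3 libraries of a group came from separate cultures.

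ARID1A, the gene that the classes were made from (ENSG00000117713, chromosome 1, positions 26693236 to 26782110, plus strand, GRCh38), was read in every library first. It was at 144, 209 and 130 CPM of the total in KO replicates 1, 2 and 3. The libraries labelled G2087R replicates 1 and 2 were at 295 and 326 CPM, and G2087R replicate 3 was at 67519 CPM. WT was at 5733, 9630 and 60085 CPM in replicates 1, 2 and 3, so WT replicate 3 was far above the other WT libraries. V2084D was at 50651, 42785 and 105990 CPM, G2087E at 50029, 44160 and 80459 CPM, and K2025E at 17941, 12742 and 20265 CPM. WT replicate 1 was the library just inside the limit and G2087R replicate 2 the library just outside it, and none lay between 326 and 5733 CPM. In the libraries labelled G2087R replicates 1 and 2 the ARID1A level thus went against the label, and the low class joins them to KO. ARID1A gets no test, since it chose the classes.

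**Figure D1:**
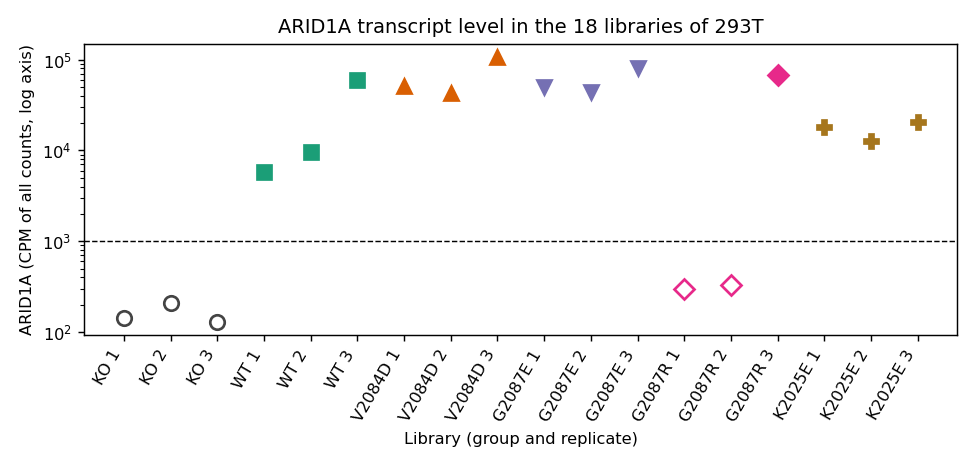
ARID1A level of each 293T library, in counts per 1000000 of the library total on a log axis; filled marks are the high class, open marks the low class, and the dashed line is the limit of 1000 CPM. The 5 open marks lie at 130 to 326 CPM and the 13 filled marks at 5733 CPM or more.

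ARID1A is the DNA-binding subunit that defines the canonical BAF (SWI/SNF) complex, which uses ATP to move nucleosomes and keeps enhancers open. In the heat shock response, the factor HSF1 turns on cytosolic chaperones when misfolded proteins build up. In the integrated stress response, phosphorylation of eIF2 raises the translation of ATF4, a factor for amino acid and redox genes, and the unfolded protein response does similar work for the folding capacity of the endoplasmic reticulum (ER). Chaperones, ATF4 targets and ER folding genes are described first below.

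Library totals ran from 33429483 to 55539529 counts. In a principal component analysis of all genes tested, K2025E replicates 2 and 3 stood apart on the first component (104 and 66.6, with WT replicate 1 next at 40.2, 15.5% of the variance). The 5 high libraries numbered 3 stood apart on the second (35.4 to 59.2, 13.3% of the variance), where G2087R replicates 1 and 2 were at the other end (-61.1 and -68.0) and KO replicate 3 was at 1.61. The low class held 1 library numbered 3 of its 5, and the high class 5 of 13. Of 24 genes of the kidney and adrenal-like lineage of 293 cells, 21 passed the filter on low counts, and their summed level was 1393 to 1946 CPM in the high and 1782 to 2266 CPM in the low libraries. The 32 hepatocyte markers, which stand for the other cell line of the series, summed to 80.8 to 96.3 CPM in the high and 89.9 to 109.8 CPM in the low libraries, and APOB, TTR and FGB did not pass the filter. The 13 proteins encoded in mitochondrial DNA summed to 18998 to 40831 CPM in the high and 40407 to 47001 CPM in the low libraries. The part of these library properties in the results below was not tested.

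The comparison of the classes asks which transcripts differed between libraries with much and with little ARID1A transcript, whatever its form. The amount of ARID1A protein was not read here. With edgeR's quasi-likelihood test and Benjamini-Hochberg adjustment, 211 of 23200 genes besides ARID1A were higher in the high class (0.909% of the genes tested) and 168 were lower (0.724%). At an unadjusted p under 0.05, 2337 genes were higher and 2058 lower. The differences were small for most of them, with a median log2 difference of 0.59 for the genes called higher and -0.56 for those called lower. Differences of at least 1 on the log2 scale were found in 41 of the higher and 0 of the lower genes. The libraries of both classes did not overlap at all for 144 genes that were above in every high library (0.621%) and 133 that were below (0.573%), and 87 and 67 of these were among the genes called. In bulk libraries, fewer cells that express a gene and less RNA per cell cannot be told apart.

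The genes called were chosen for a difference between these same libraries, so their counts by labelled group are a description. Of the 211 genes called higher, 87 lay above the whole range of the low class in every library of all 5 groups with a high library, and 75 did so in 4 of the groups. The high libraries lay wholly above that range for 159 of the 211 genes in WT, against 3.87% of all 23200 genes. The counts were 161 in V2084D (4.17% of all genes), 154 in G2087E (3.62%) and 188 in K2025E (8.10%), and 209 in G2087R (22.0%), where they rest on a single library. Of the 168 genes called lower, 67 lay below the range in all 5 groups and 62 in 4 of them.

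The count of calls depended on which libraries were in each class. Without G2087R replicate 1, 20 genes were higher and 9 lower, and without G2087R replicate 2 the counts were 18 and 10. Without KO replicates 1, 2 and 3, the counts were 29 and 21, 19 and 14, and 63 and 37. Leaving out a library of the high class gave 55 to 320 genes higher and 34 to 287 lower, with G2087E replicate 3 at the low end and V2084D replicate 2 at the high end. Of the 68 called genes that are named here, 15 were called in all 18 of these fits: the stress genes GDF15, INHBE, CHAC1, FGF21 and HSPA8, the early genes FOSB and EGR4, and AEN, B4GALT1, BRF2, H4C8, MYOM2, PDE3A, SMAD6 and YRDC. Without G2087R replicates 1 and 2 together, 0 genes were higher and 1 lower, with 3626 at an unadjusted p under 0.05. Without the 6 libraries numbered 3, 4 genes were higher and 0 lower, with 2465 at an unadjusted p under 0.05. GDF15, INHBE and MYOM2 were among these 4. Both of the last settings were chosen after the data were seen.

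**Figure D2:**
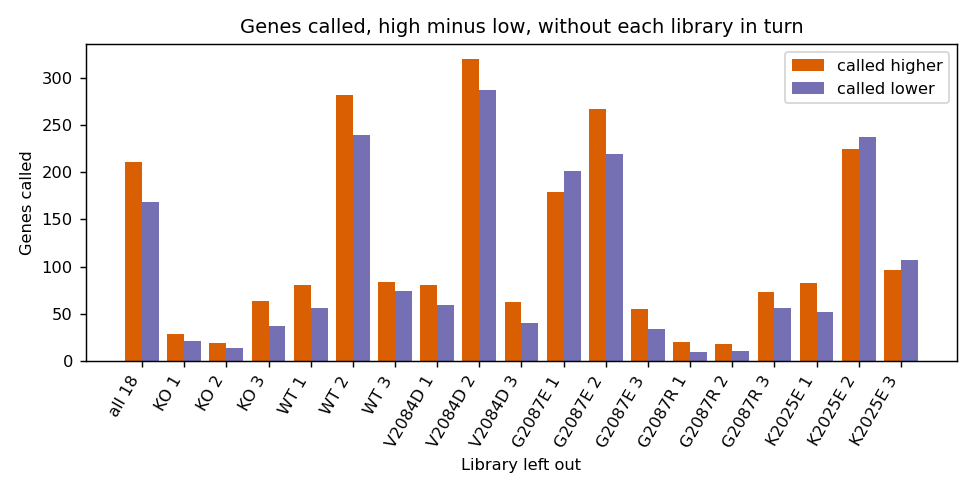
Number of genes called higher and lower in the high class (edgeR, adjusted p under 0.05) with all 18 libraries and with each library left out in turn. The bars fall lowest, to 18 and 10 genes, without G2087R replicate 2, and rise highest, to 320 and 287, without V2084D replicate 2.

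Among the 30 cytosolic heat shock chaperones and their regulators, 10 were called higher and 0 lower, and 29 had a positive difference. Their median log2 difference was 0.49, against 0.0044 over all genes tested. Among all 23200 genes, 0.909% were called higher, 0.724% were called lower and 11711 had a positive difference. Each list below stands beside these shares. DNAJB1, an HSP40 co-chaperone that hands clients to HSP70 (ENSG00000132002, chromosome 19, positions 14514770 to 14529770, minus strand), was at 46.5, 51.0 and 44.6 CPM, scaled by TMM as all levels from here on, in KO and at 49.6 and 51.6 CPM in G2087R replicates 1 and 2. In the 13 high libraries DNAJB1 ran from 65.2 CPM to 439 CPM with a median of 205.7 CPM. The rule that named the genes with the largest differences took only genes whose classes did not overlap. The gap between the classes is thus no finding for DNAJB1 or for the other genes it named. The spread of the low libraries was narrow beside that of the high ones. The log2 difference of DNAJB1 was 2.08 (SE 0.427, adjusted p = 0.0238). It was called in 13 of the 18 fits without 1 library, and the call was lost without any 1 of the 5 low libraries (largest adjusted p = 0.0879).

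HSPA8, the constitutive HSP70 of the cytosol (ENSG00000109971, chromosome 11, positions 123057489 to 123063230, minus strand), was at 1079, 1159 and 931 CPM in KO and at 1068 and 1123 CPM in G2087R replicates 1 and 2. It ran from 1357 CPM to 2753 CPM in the high libraries with a median of 1911 CPM, and the log2 difference was 0.89 (SE 0.156, adjusted p = 0.00971). HSPA8 was named by the same rule, so its lack of overlap is no finding either. HSPA6, an inducible HSP70 that is nearly silent without stress (ENSG00000173110, chromosome 1, positions 161524540 to 161526910, plus strand), was at 0.896, 0.606 and 0.58 CPM in KO and 0.663 and 0.355 CPM in G2087R replicates 1 and 2. In the high class it split by labelled group, where WT replicates 1 and 2 and K2025E also had the lowest ARID1A levels. HSPA6 was at 143, 68.4 and 160 CPM in V2084D, at 199, 92.8 and 196 CPM in G2087E and at 193 CPM in G2087R replicate 3, but at 1.12, 0.938 and 3.64 CPM in WT and 0.591, 1.39 and 1.25 CPM in K2025E. The WT and K2025E libraries thus lay near the low class, and the classes overlapped although edgeR called the gene (adjusted p = 0.0382, lost in 9 of 18 fits without 1 library).

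The promoters of HSPA8 and HSPA6 are shown because both genes were higher and both hold the heat shock element, the site that HSF1 binds. The sequences are RefSeq's, on GRCh38.p14, printed 5′ to 3′ along the strand of the gene. Capitals mark the matches to GAANNTTC and its other half-site order TTCNNGAA, each the same on both strands, where matches may overlap. The first HSPA8 stretch is chr11:123062345-123062374 and the second chr11:123062170-123062199 (minus strand, 30 bases each). Their first matches begin 230 and 55 bases before RefSeq's start of HSPA8. That start differs from the gene positions given above, and both stretches lie inside those positions. The HSPA6 run is chr1:161524290-161524539 (plus strand, the 250 bases before the start).

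HSPA8 upstream stretch: gcgagcttGAAAGTTCCAGAAcgctgcggt
HSPA8 stretch near the start: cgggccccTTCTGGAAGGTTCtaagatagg
HSPA6 promoter: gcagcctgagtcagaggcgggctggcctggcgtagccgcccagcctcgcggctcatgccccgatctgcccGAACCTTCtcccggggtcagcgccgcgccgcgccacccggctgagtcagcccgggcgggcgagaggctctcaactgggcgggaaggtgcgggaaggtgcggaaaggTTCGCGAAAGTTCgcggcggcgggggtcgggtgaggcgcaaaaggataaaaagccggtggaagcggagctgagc

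HSPA8 held 4 such matches and HSPA6 held 3, while DNAJA1, HSPA1A, HSPA1B and ZFAND2A held 1 each. These letters were not in the 250-base window of DNAJB1, which also lies inside the gene positions given above. At least 1 match was found in 11.75% of 27305 promoters of the same length, in 8.78% of those of the genes tested and in 18 of 174 promoters of genes called higher (10.3%). It was found in 6 of 119 promoters of genes called lower, among them PDE3A with 3 matches. A match is a run of letters and not a measured site.

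HSPA1A and HSPA1B, the main stress-inducible HSP70 genes, are near-identical copies, so the division of reads between them is uncertain. HSPA1A was at 187, 162 and 281 CPM in KO and at 276 and 299 CPM in G2087R replicates 1 and 2. It was at 1727, 1021 and 2791 CPM in V2084D, at 1914, 1217 and 2333 CPM in G2087E and at 2048 CPM in G2087R replicate 3. WT had 349, 294 and 416 CPM and K2025E 228, 277 and 379 CPM, so HSPA1A followed the same split by labelled group as HSPA6. Between the classes, HSPA1A had a log2 difference of 2.26 (SE 0.583, adjusted p = 0.0498), and that of HSPA1B was 2.23 (SE 0.567, adjusted p = 0.0488). These calls were lost in 15 and 13 of the 18 fits without 1 library. DNAJA1, another HSP40, was higher by 0.75 (SE 0.136, adjusted p = 0.0140). STIP1, which links HSP70 to HSP90, was higher by 0.51 (SE 0.107, adjusted p = 0.0276). ZFAND2A, a heat-inducible partner of the proteasome from the list of protein quality control, was at 11.2 to 12.7 CPM in the low and 14.5 to 26.8 CPM in the high libraries (log2 difference 0.83, SE 0.153, adjusted p = 0.0147). The other genes called in the heat shock list were DNAJB4 (1.07), AHSA1 (0.42) and HSP90AB1 (0.40). DNAJA1 was called in 16 of the 18 fits without 1 library, ZFAND2A in 15, STIP1 in 13, DNAJB4 and HSP90AB1 in 6 each and AHSA1 in 3.

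**Figure D3:**
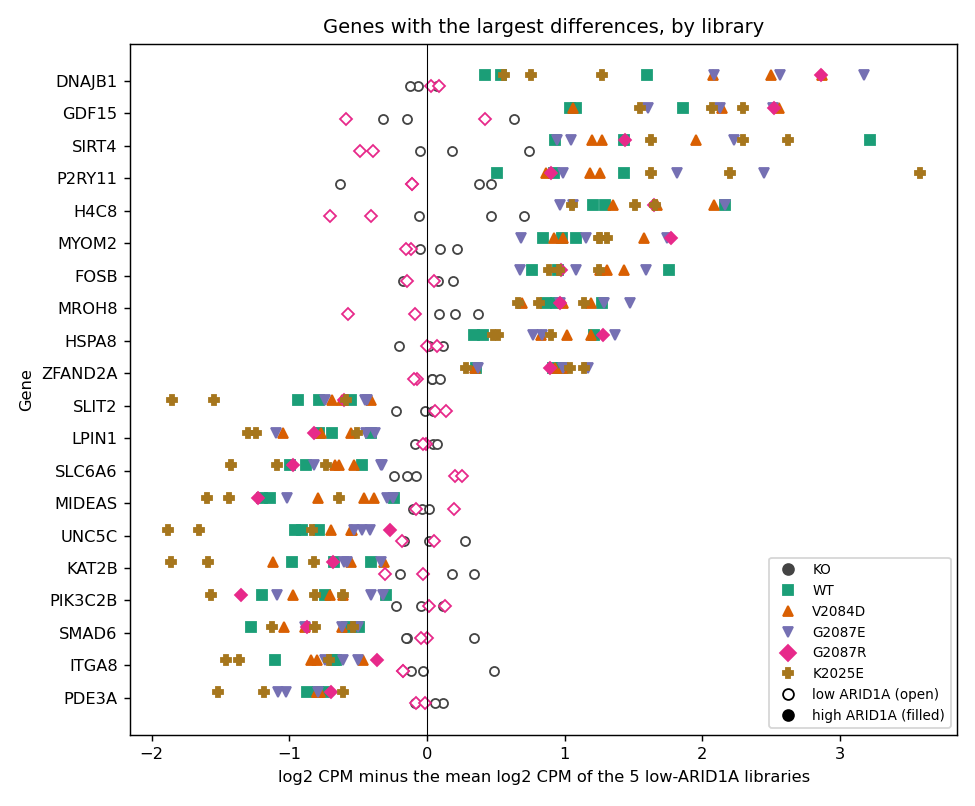
For the 10 genes with the largest difference in each direction by the naming rule, each library's log2 CPM minus the mean of the 5 low libraries; filled marks are high-class libraries, open marks low-class libraries, and shapes give the labelled group. The naming rule took only genes whose classes do not overlap, so the gap between filled and open marks is no finding. DNAJB1 has the widest range among the chaperones, with WT and K2025E nearest to the low class.

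Within the 13 high libraries, several chaperones were higher where more ARID1A was measured. Across 133 genes set against log2 ARID1A, DNAJB1 had a Pearson r of 0.918 (permutation p = 1e-05, the smallest that 100000 permutations can give, adjusted p = 0.00133) and a Spearman rho of 0.923 (permutation p = 5e-05, adjusted p = 0.0031). HSPA8 had an r of 0.905 (permutation p = 2e-05, adjusted p = 0.00133) and a rho of 0.923 (permutation p = 4e-05, adjusted p = 0.0031). HERPUD1, an ER stress gene that helps to clear misfolded proteins, had an r of 0.849 (permutation p = 0.00035, adjusted p = 0.0122) and a rho of 0.918 (permutation p = 7e-05, adjusted p = 0.0031). Without WT replicates 1 and 2, which were farthest from the median ARID1A level, r was 0.904 for DNAJB1, 0.867 for HSPA8 and 0.915 for HERPUD1. Among the 8 high libraries numbered 1 or 2, r was 0.935, 0.936 and 0.721. The permutations took the 13 libraries as exchangeable and did not keep labelled groups together, so these p-values may be too small. Form and amount cannot be told apart in most of the high libraries, since WT replicates 1 and 2 and K2025E had the lowest ARID1A levels of the class. WT replicate 3 can be set beside single libraries of other forms. Its ARID1A level was 62920 CPM, against 51820 CPM in G2087E replicate 1. DNAJB1 was at 147.5 CPM against 288.4 CPM, HSPA6 at 3.64 CPM against 199 CPM and HSPA8 at 2481 CPM against 1911 CPM. G2087R replicate 3, which shares the replicate number, had 68170 CPM of ARID1A, 354.5 CPM of DNAJB1 and 2597 CPM of HSPA8. For HSPA8, replicate 3 minus replicates 1 and 2 had a median of 0.41 over the groups other than G2087R (-0.26 to 0.84). The part of form was not tested. In all, 6 of the 133 genes had adjusted p values under 0.05 for both r and rho, each with a positive sign: these 3 genes with HSPA6, HSPA1A and HSPA1B. The last 3 were named after their values were seen, and HSPA6 and HSPA1A split by labelled group as described above.

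**Figure D4:**
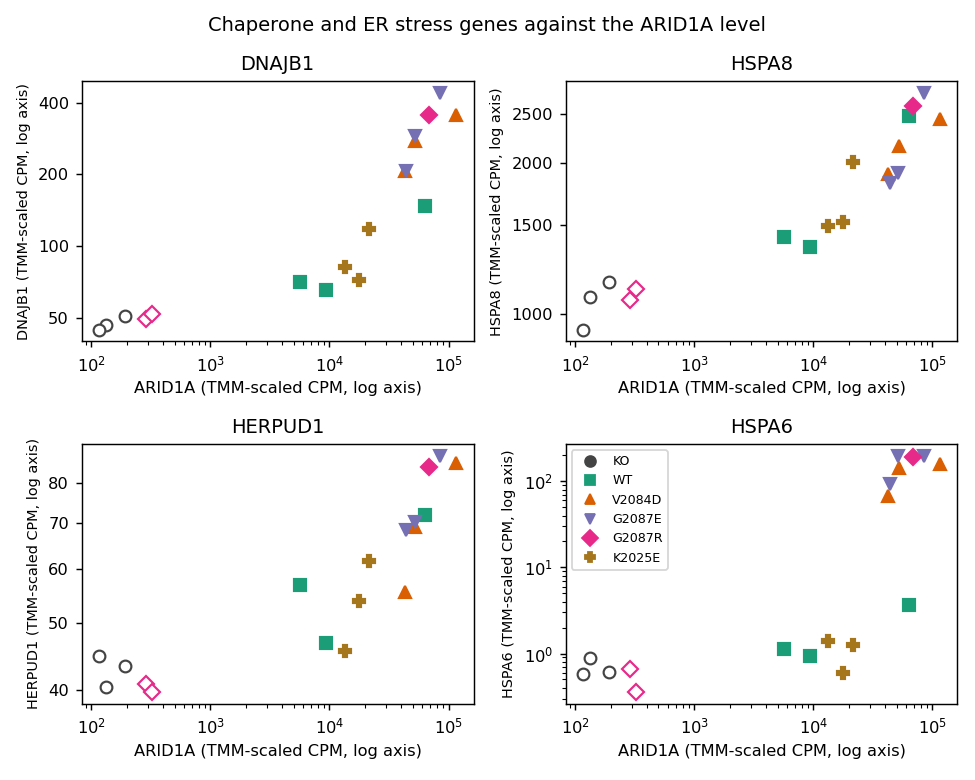
DNAJB1, HSPA8, HERPUD1 and HSPA6 against ARID1A in the 18 libraries, both in TMM-scaled CPM on log axes; open marks are the low class. The 3 K2025E and 3 WT libraries lie near the low class for HSPA6 at 0.591 to 3.64 CPM, while the other 7 high libraries lie at 68.4 to 199 CPM.

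Among 28 integrated stress response genes of the ATF4 pathway, 9 were called higher and 0 lower, with a median of 0.21. The shares over all genes tested were 0.909% higher and 0.724% lower. GDF15, a secreted cytokine of cell stress (ENSG00000130513, chromosome 19, positions 18374731 to 18389176, plus strand), was at 2.33, 2.07 and 4.005 CPM in KO and at 3.45 and 1.72 CPM in G2087R replicates 1 and 2. It ran from 5.31 CPM to 15.2 CPM in the high libraries with a median of 10.9 CPM, and the naming rule required that the classes not overlap. Its log2 difference was 1.90 (SE 0.287, adjusted p = 0.0055), and in the fits without 1 library the difference stayed between 1.76 and 2.07. INHBE, an activin subunit known as an ATF4 and ER stress target (ENSG00000139269, chromosome 12, positions 57452323 to 57459280, plus strand), was at 0.761, 0.578 and 1.19 CPM in KO and 0.701 and 0.691 CPM in G2087R replicates 1 and 2. In the high libraries it ran from 1.69 CPM to 4.81 CPM with a median of 2.70 CPM. Its log2 difference was 1.83 (SE 0.256, adjusted p = 0.00401). The classes did not overlap for INHBE, which was named after its values were seen.

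CHAC1, which degrades glutathione (ENSG00000128965, chromosome 15, positions 40952962 to 40956519, plus strand), was at 6.43, 8.40 and 8.39 CPM in KO and 7.36 and 10.1 CPM in G2087R replicates 1 and 2. Its high libraries ran from 9.32 CPM in WT replicate 3 to 21.3 CPM in K2025E replicate 2. The classes overlapped only by WT replicate 3 and V2084D replicate 2, and the log2 difference was 0.99 (SE 0.171, adjusted p = 0.00925). ATF4 itself was at 617 to 890 CPM in the low and 920 to 1455 CPM in the high libraries (0.48, SE 0.112, adjusted p = 0.0386). The factor ATF5 was higher by 0.67 (SE 0.130, adjusted p = 0.0208), and DDIT3, the stress factor CHOP, had a difference of 0.96 (SE 0.196, adjusted p = 0.0238). SARS1, the cytosolic seryl-tRNA synthetase, was higher by 0.59 (SE 0.113, adjusted p = 0.0197). ATF4 was called in 5 of the 18 fits without 1 library, ATF5 and DDIT3 in 14 and SARS1 in 13. FGF21, a secreted metabolic hormone, had 0 counts in 4 low libraries and 0.0758 CPM in G2087R replicate 1, against 0.0687 to 1.02 CPM in the high libraries (adjusted p = 0.00874), so no fold is given.

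The amino acid response element, the site bound by ATF4 with its partners, was searched as TGATGNAA on either strand (TTNCATCA on the other). It is shown for CHAC1 and HERPUD1, called genes of the ATF4 and ER lists, as 30-base stretches at chr15:40953251-40953280 and chr16:56931955-56931984, both on the plus strand, where the capitals mark the match.

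CHAC1 site: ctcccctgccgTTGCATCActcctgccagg
HERPUD1 site: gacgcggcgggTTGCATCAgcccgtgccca

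These matches begin 209 and 176 bases before RefSeq's gene start, and FGF21 held 1 as well. The CHAC1 stretch lies inside the GENCODE positions given above for that gene. HERPUD1 begins at position 56932048 in GENCODE, so its stretch lies before the start in both annotations. The letters were not in the windows of GDF15, DDIT3 and ATF5. A match was found in 3.19% of all promoters, in 1.51% of those of the genes tested, in 5 of 174 for genes called higher (2.87%) and in 0 of 119 for genes called lower.

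Of 24 ER folding genes of the unfolded protein response, 4 were called higher (0.909% over all genes tested) and 0 lower (0.724%), with a median of 0.19. HSPA5, the HSP70 of the ER, was at 507, 481 and 484 CPM in KO and 469 and 428 CPM in G2087R replicates 1 and 2. It ran from 531 CPM to 997 CPM in the high libraries with a median of 684 CPM (0.64, SE 0.133, adjusted p = 0.0262). The classes did not overlap, and WT replicate 2 was the high library nearest to the low class. HERPUD1 was at 39.7 to 44.8 CPM in the low and 45.5 to 87.6 CPM in the high libraries (0.66, SE 0.145, adjusted p = 0.0330). XBP1, the factor whose spliced message drives ER expansion, was higher by 0.90 (SE 0.218, adjusted p = 0.0443). MANF, an ER stress survival factor, was higher by 0.74 (SE 0.165, adjusted p = 0.0344). HSPA5 was called in 13 of the 18 fits without 1 library, MANF in 9, HERPUD1 in 8 and XBP1 in 5. XBP1 was at 242 to 321 CPM in the 5 high libraries numbered 3 and at 119 to 167 CPM in the other 8 high libraries, while KO replicate 3, at 136 CPM, was the highest of the low class. The difference of replicate 3 from replicates 1 and 2 was taken for each gene as the median of the groups other than G2087R. For this list it had a median of 0.28, which is larger than the median between the classes.

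Protein turnover genes had smaller differences. All 31 proteasome subunits had a positive difference, with a median of 0.37, and 4 were called higher: PSMC1 (0.53), PSMC2 (0.53), PSMC5 (0.51) and PSMD6 (0.37). Among all 23200 genes, 11711 had a positive difference and 0.909% were called higher. PSMC5, an ATPase of the proteasome base, was at 77.6 to 96.2 CPM in the low and 102 to 184 CPM in the high libraries. Of 26 genes of ubiquitin-dependent quality control, 0 were called lower, and those called higher included ZFAND2A and the polyubiquitin gene UBB (0.53, SE 0.137, adjusted p = 0.0498). STUB1, a ubiquitin ligase for clients of the cytosolic chaperones, had a difference of 0.31 (adjusted p = 0.446). The calls of PSMC1, PSMC2 and PSMC5 were each found in 5 of the 18 fits without 1 library, and that of PSMD6 in 4. UBB was called in 4 of these fits.

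Other genes with large differences belonged to no single list. FOSB, an AP-1 subunit of the immediate early class (ENSG00000125740, chromosome 19, positions 45467995 to 45475179, plus strand), was at 3.54, 3.28 and 2.74 CPM in KO and 2.81 and 3.21 CPM in G2087R replicates 1 and 2. It ran from 4.95 CPM to 10.5 CPM in the high libraries with a median of 6.56 CPM (1.17, SE 0.172, adjusted p = 0.00429). EGR4, an early zinc finger factor, was at 0 to 0.273 CPM in the low and 0.591 to 1.38 CPM in the high libraries (adjusted p = 0.00925). These were the only 2 of 28 AP-1 and early genes that were called (0.909% called higher over all genes tested), and the median of that list was -0.07. MYOM2, a protein of the muscle M-band, was at 2.69 to 3.48 CPM in the low and 4.79 to 10.2 CPM in the high libraries (1.23, SE 0.178, adjusted p = 0.00429). SIRT4, a mitochondrial sirtuin, was at 1.19 to 2.80 CPM and 3.18 to 15.5 CPM (1.81, SE 0.364, adjusted p = 0.0238). H4C8, a gene for histone H4, was at 0.878 to 2.33 CPM and 2.80 to 6.43 CPM (1.49, SE 0.255, adjusted p = 0.00925), and it and H2AC6 (0.60) were the only 2 of 29 histone genes tested that were called. P2RY11 (1.73, SE 0.432, adjusted p = 0.0463) shares exons with PPAN and lies opposite EIF3G, and MROH8 (1.01, SE 0.176, adjusted p = 0.00971) lies opposite RPN2. Since the strand setting of the counts is not given in the sources used here, reads of these pairs cannot be told apart. The same holds for other named genes with exons opposite another gene. Among them are DNAJB1 (opposite TECR), DDIT3 (MARS and MBD6), ATF5 (NUP62 and IL4I1), STUB1 (JMJD8) and PSMC5 (FTSJ3). SIRT4 was called in 14 of the 18 fits without 1 library, P2RY11 in 6, MROH8 in 16 and H2AC6 in 5.

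Genes lower in the high class had no member with a difference beyond 1 on the log2 scale. PDE3A, a phosphodiesterase that breaks down cAMP (ENSG00000172572, chromosome 12, positions 20369245 to 20684381, plus strand), was at 3.31, 3.83 and 3.66 CPM in KO and 3.34 and 3.49 CPM in G2087R replicates 1 and 2. It ran from 1.23 CPM to 2.31 CPM in the high libraries with a median of 2.03 CPM (-0.88, SE 0.141, adjusted p = 0.00658). The low libraries of PDE3A kept close together, and the naming rule required them to lie above every high library. SMAD6, an inhibitor of BMP signalling (ENSG00000137834, chromosome 15, positions 66702228 to 66782848, plus strand), was at 53.05, 52.9 and 74.2 CPM in KO and 58.6 and 57.0 CPM in G2087R replicates 1 and 2. Its high libraries ran from 24.2 CPM to 41.6 CPM with a median of 33.4 CPM (-0.78, SE 0.123, adjusted p = 0.00658). SMAD9, a SMAD that BMP receptors act on, was lower (log2 difference -0.68, SE 0.150, adjusted p = 0.0325), and the inhibitor SMAD7 had a difference of -0.59 (adjusted p = 0.0530). SMAD9 was called in 11 of the 18 fits without 1 library.

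The other genes with the largest drops included surface and guidance genes. ITGA8, an integrin of kidney development, was at 26.9 to 42.7 CPM in the low and 11.1 to 23.7 CPM in the high libraries (-0.78, SE 0.152, adjusted p = 0.0208). Its call was lost without KO replicate 3 (adjusted p = 0.0564). The guidance ligand SLIT2 was lower (log2 difference -0.74, SE 0.167, adjusted p = 0.0355), and the netrin receptor UNC5C was lower (log2 difference -0.76, SE 0.184, adjusted p = 0.0443). SLC6A6, the taurine transporter, and LPIN1, a phosphatidate phosphatase of lipid synthesis, were both lower, with differences of -0.74. The lipid kinase PIK3C2B (-0.78), the acetyltransferase KAT2B (-0.76) and the deacetylase partner MIDEAS (-0.75) were lower too. K2025E replicates 2 and 3 were the lowest of all libraries for SLIT2, UNC5C, MIDEAS and KAT2B, at 28.3 and 22.9 CPM for SLIT2 against 43.2 to 62.5 CPM in the other high libraries. In the fits without 1 library, SLIT2 was called in 9 of 18, UNC5C in 7, KAT2B and MIDEAS in 5 each, PIK3C2B in 13, and SLC6A6 and LPIN1 in 15.

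HOX genes, which give cells their position along the body axis, were the list with most calls among the genes that were lower. Of 38 tested, 4 were called lower and 0 higher, 36 had a negative difference and the median was -0.34. Among all 23200 genes, 0.724% were called lower and 11489 had a negative difference. HOXD11 was at 45.1, 44.9 and 73.2 CPM in KO and 49.3 and 40.5 CPM in G2087R replicates 1 and 2, against 28.6 to 39.4 CPM in the high libraries (-0.51, SE 0.112, adjusted p = 0.0330). HOXB3 was at 38.2 to 53.5 CPM in the low and 19.9 to 37.3 CPM in the high libraries (-0.52, SE 0.134, adjusted p = 0.0495). The other calls were HOXD10 (-0.49) and HOXB9 (-0.38). HOXB3 shares exons with neighbouring HOX genes, and HOXD10 and HOXD11 share exons with each other, so their calls are not separate readings. HOXD11 was called in 13 of the 18 fits without 1 library and the other 3 in 5 each.

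Among 40 collagen, laminin and integrin genes, COL6A3 was lower (-0.72, adjusted p = 0.0443) and TNC, a matrix glycoprotein, higher (1.26, adjusted p = 0.0442), with 36 negative differences and a median of -0.33. COL6A3 was called in 5 of the 18 fits without 1 library and TNC in 8. Of 28 cholesterol and fatty acid synthesis genes, the desaturase gene SCD (-0.61, SE 0.114, adjusted p = 0.0187) and the sterol sensor gene INSIG1 (-0.46, SE 0.107, adjusted p = 0.0388) were lower and 0 higher. SCD was at 1827 to 2205 CPM in the low and 876 to 1597 CPM in the high libraries. INSIG1 overlapped between the classes, with V2084D replicate 2 at 111 CPM. One of 25 YAP/TEAD genes, ARHGEF17, was lower (-0.62), with a median of -0.22 for the list. The 21 tested genes typical of 293 cells had a median of -0.24. Of 30 Polycomb subunits, CBX2 was lower (-0.47, adjusted p = 0.0495) and the median was -0.02. Over all genes tested, 0.909% were called higher and 0.724% lower. A single call in a list is a result for that gene and not for the list. SCD was called in 16 of the 18 fits without 1 library, INSIG1 in 7, ARHGEF17 in 6 and CBX2 in 5.

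Growth and checkpoint lists gave few calls, each of them higher, beside 0.909% called higher over all genes tested. Of 23 p53 targets, 4 were higher: the nuclease gene AEN (0.65, SE 0.103, adjusted p = 0.00658), TRIAP1 (0.68), the cell cycle inhibitor CDKN1A (0.76) and DDB2 (0.46). AEN was at 72.9 to 82.1 CPM in the low and 94.1 to 155 CPM in the high libraries, and CDKN1A, at 35.1 CPM in KO replicate 3, overlapped. CDKN1A was called in 5 of the 18 fits without 1 library, TRIAP1 in 14 and DDB2 in 3. Of 33 replication and G1/S genes, RFC2, GINS2 and GINS3 were higher by 0.51, 0.45 and 0.37, calls that were found in 5, 5 and 4 of these fits. Of 34 genes of mitosis and G2/M, 0 were called, although 33 had a positive difference and the median was 0.26.

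Several lists had a shared sign and no call, while over all 23200 genes 11711 differences were positive and 11489 negative. All 32 cytosolic ribosomal protein genes had a positive difference with a median of 0.36, all 31 nuclear-encoded respiratory chain subunits with a median of 0.31, and 16 of 19 mitochondrial chaperones and proteases with a median of 0.26. Without K2025E replicates 2 and 3 the medians were 0.18 for the ribosomal and 0.16 for the respiratory chain genes. RPS12, for one, was at 1325 and 1154 CPM in K2025E replicates 2 and 3, at 494 to 942 CPM in the other high libraries and at 439 to 642 CPM in the low libraries. All 13 proteins of mitochondrial DNA had a negative difference with a median of -0.44. The 30 other BAF, PBAF and ncBAF subunits had 0 calls, 15 positive and 15 negative differences and a median of -0.02. ARID1B, the paralog that can take the place of ARID1A in the complex, was at 79.4 to 103 CPM in the low and 41.0 to 107 CPM in the high libraries (adjusted p = 0.679). There were also 0 calls among the tested members of the lists of interferon (33), NRF2 (23), neuronal (23), glycolysis and hypoxia (33) and hepatocyte genes (17). Their medians lay between 0.0090 and 0.08.

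The labels alone give a comparison that does not use the measured ARID1A level, with the 12 libraries of WT, V2084D, G2087E and K2025E against the 3 KO libraries and G2087R left out. There edgeR called 0 of 22716 genes besides ARID1A, with 3607 at an unadjusted p under 0.05 and 22 at an adjusted p under 0.10 (the smallest 0.0933), while DESeq2 called 303 higher and 197 lower. These libraries are also part of the class comparison, so the values stand side by side and are not independent of it. Of the genes named from this comparison, the largest differences were those of GDF15 (1.78, SE 0.351), FOSB (1.14, SE 0.226), ITGA8 (-0.95, SE 0.181) and PDE3A (-0.94, SE 0.180), each at an adjusted p of 0.0933. The same adjusted p was found for MYOM2 (1.07) and for 3 genes at a mean log2 CPM under 1, EGR4 (2.16), INHBE (1.65) and FGF21, which gets no fold by label because it was at 0 counts in all KO libraries. The others named were BYSL (0.71), BRF2 (0.70) and YRDC (0.63), which act in ribosome, RNA polymerase III and tRNA biogenesis, and SMAD6 (-0.81), the galactosyltransferase gene B4GALT1 (-0.71) and the PI3K subunit gene PIK3R3 (-0.69). Between the ARID1A classes the same BYSL, BRF2, YRDC and B4GALT1 passed the test at 0.57, 0.66, 0.56 and -0.65, and PIK3R3 did not (-0.47, adjusted p = 0.0524). Heat shock genes had a median of 0.46 by label, integrated stress genes 0.31, ER folding genes 0.04 and HOX genes -0.39.

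The G2087R group holds libraries of both classes under 1 label and shares no library with the labelled comparison. There is 1 high library, so no test is given. Replicate 3 minus the mean of replicates 1 and 2 had the same sign as the labelled difference for 49.0% of all 22716 genes and for 53.5% of the 3607 at an unadjusted p under 0.05. Of these 3607 genes, 952 of the 1998 that were higher by label had a positive G2087R difference (median -0.02), and 979 of the 1609 that were lower had a negative one (median -0.11). For the 22 genes at an adjusted p under 0.10 the sign was the same for 19, 10 of 11 higher and 9 of 11 lower genes. Over these genes the G2087R difference had a median of 1.01 for the higher and -0.55 for the lower genes. The same difference between replicate numbers, taken for each gene as the median of the other 5 groups, had medians of 0.24 and -0.04. A median over 5 groups spreads less than the difference of a single group, so these are unlike measures. Among the genes named by label, GDF15 differed by 2.58 within G2087R and by -0.43 to 0.95 within the other groups, FOSB by 1.01 and by -0.31 to 0.89, and PDE3A by -0.64 and by -0.12 to 0.04. SMAD6 differed by -0.85 within G2087R, close to the -0.74 at the end of the range of the other groups (-0.74 to 0.49). ITGA8 differed by -0.19, inside the range of the other groups (-0.28 to 0.56). BYSL differed by 0.33, also inside that range (-0.13 to 0.50), and PIK3R3 by 0.02, against its sign by label. BRF2 (0.61, others 0.02 to 0.36), YRDC (0.49, others -0.17 to 0.25) and B4GALT1 (-0.72, others -0.36 to 0.38) lay outside it.

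In brackets below is the same difference between replicate numbers, taken for each gene as the median of the other groups. As lists, heat shock genes had a median of 0.95 within G2087R (0.26), integrated stress genes 0.41 (0.04), ER folding genes 0.47 (0.28) and proteasome subunits 0.27 (0.14). HOX genes had -0.15 (-0.02). Ribosomal protein and nuclear respiratory chain genes had -0.34 and -0.18 within G2087R, against 0.54 and 0.46 by label, so these lists changed sign between both readings. Mitochondrial DNA transcripts had -0.72 within G2087R and -0.38 by label.

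**Figure D5:**
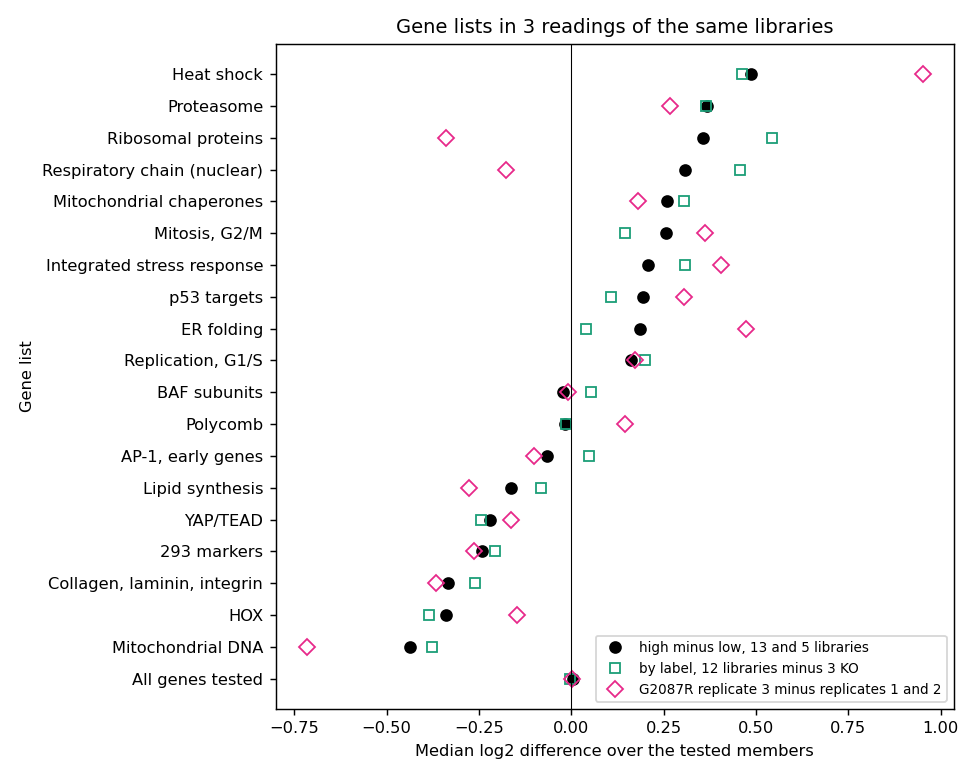
Median log2 difference of each gene list in the comparison of the ARID1A classes (black), in the comparison by label (green squares) and within G2087R (pink diamonds), with all genes tested in the bottom row. Heat shock genes lie to the right of 0 in each reading, at 0.49, 0.46 and 0.95, and HOX genes to the left, while ribosomal protein genes are at 0.36 and 0.54 in the first 2 and at -0.34 within G2087R.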

How the data were processed

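The authors deposited raw counts per gene for 67130 genes, made from reads on genome build GRCh38, and named edgeR without a version, per the submitters' processing notes. RNA was taken with Trizol and a column kit from 293T cells and turned into libraries with a NEBNext Ultra II kit, per the labels' protocols. The aligner, counting tool, annotation release and strand setting are not given in the sources used here, so how reads of near-identical or overlapping genes were shared out is unknown. All columns matched a sample, and the Huh7 libraries were not used here.

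TMM-scaled counts were tested with the quasi-likelihood method of edgeR 4.0.16 under R 4.3.3 (prior count of 2) over all 18 libraries with the ARID1A class as the only term, after filterByExpr on the labelled groups at a minimum count of 10 and a minimum total count of 15. Calls needed an adjusted p under 0.05 by Benjamini-Hochberg over all genes. The common biological coefficient of variation was 32.0%. Replicate libraries differed by 15.4 to 310 times the variance expected from counting (18 pairs), so none was counted as a repeat deposit, and for genes pooled the spread between libraries and not the depth sets the precision. The largest values, 310 and 283, set G2087R replicate 3 against replicates 2 and 1, which lie in the other class. The smallest, 15.4 for KO replicates 1 and 2 and 15.7 for G2087R replicates 1 and 2, were pairs within the low class. The p-values measure the spread between these libraries only, which may be technical. Standard errors were taken as the size of the log2 difference over the root of its F statistic. Correlations used log2 CPM with 100000 permutations. DESeq2 1.42.0 was an alternative, and the pipeline was tested on simulated data.

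The classes, the 26 gene lists (755 genes) and the tests were chosen with earlier results of these data known. The text names ARID1A, STUB1 and the 10 genes with the largest difference in each direction among called, protein-coding genes whose classes did not overlap and whose mean log2 CPM was 1 or more. It also names up to 4 members of each list by smallest adjusted p. By label, where 0 genes were called, it names the 5 protein-coding genes of smallest p in each direction, also at a mean log2 CPM of 1 or more. HSPA6, HSPA1A, HSPA1B, DNAJB4, AHSA1, HSP90AB1, ATF4, ATF5, DDIT3, INHBE, SMAD7, SMAD9 and ARID1B were named after their values were seen. The annotation was GENCODE 29, which holds 97.8% of the genes tested, and promoters were RefSeq's. Gene positions are thus GENCODE's, while promoter windows end at RefSeq's start, which can lie inside them. Some genes of the lists are not reported here.

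Replicate numbers were not taken as pairs. Alternatives were other size factors, filters and tools, other class limits, ARID1A removed before scaling, groups weighted equally, the replicate number as a block and libraries left out.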

Additional observations from a re-analysis of the deposited data

How the results depend on the processing

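Between high and low ARID1A, 211 genes were called higher and 168 lower. RLE size factors, removal of ARID1A before scaling and leaving out K2025E replicates 2 and 3 kept both counts within 1.5 times of these. The counts were 901 and 634 with DESeq2, 58 and 41 without a filter, 333 and 314 with a filter of 1 CPM in 3 libraries and 365 and 304 with labelled groups weighted equally. With a log2 difference of at least 1 required, they were 41 and 0. With the high class limited to 10000 CPM or more, they were 115 and 57, and with log2 ARID1A as a continuous term 228 and 104. With classes as labelled, or without the 3 G2087R libraries, 0 and 0 genes were called, with 3067 and 3607 at an unadjusted p under 0.05. Without single libraries the calls ran from 18 to 320 higher and from 9 to 287 lower. Without libraries numbered 3 they were 4 and 0, and without G2087R replicates 1 and 2 they were 0 and 1. The cause of these shifts was not tested. Without a filter, 39935 genes were tested.

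With the replicate number as a block, 169 genes were higher and 155 lower, and 266 of the 379 calls were kept. The 4 proteasome and 3 G1/S calls became 0 with the block, and heat shock calls went from 10 to 7. By label, the block gave 1 and 0. The deviations from the group means had a median correlation of 0.07 over 45 pairs of libraries with the same number, of which 17 were over 0.1, and of -0.03 over 90 pairs with different numbers, of which 8 were over 0.1.

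By label, the count of 0 in each direction became 303 and 197 with DESeq2, 7 and 15 without K2025E replicates 2 and 3, and 4 and 1 with groups weighted equally. Without single libraries, from 0 to 1 genes were higher and from 0 to 1 lower, the calls being without KO replicate 3 and without WT replicate 3.

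For the 68 called genes that are named, 0 of 2173 alternative values reversed, 1298 kept the call and 875 lost it. What more depth would show for low-count genes such as FGF21 and EGR4 was not tested.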
